A study of Mus musculus with 13 samples.

Results

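The CDK inhibitor genes are the 7 genes of the mouse that encode the Cip/Kip proteins (Cdkn1a, Cdkn1b and Cdkn1c) and the INK4 proteins (Cdkn2a, Cdkn2b, Cdkn2c and Cdkn2d). They were chosen by name, and peaks at their annotated start sites and along their gene bodies were read from 5 peak lists, with all 22367 protein-coding genes as the background. The lists came from ChIP-seq of wild-type mouse embryonic stem cells (mESCs) of the 129/1 XY ES cell line, all of them without treatment: endogenous AEBP2 (2 replicates), H3K27me3 (2 replicates) and FS2-AEBP2 (1 sample). FS2-AEBP2 is AEBP2 with a Flag and StrepII tag that was made from an expression plasmid, for which the methods give E14 mESCs and the labels the same 129/1 line. It was precipitated by another protocol, with blocked beads, so tag, expression, protocol and possibly cell line cannot be told apart from one another in this list. Samples of SUZ12, of input and of AEBP2 KO cells were not analysed here.

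Cyclin-dependent kinases drive the cell cycle, and their inhibitors hold it back. Cip/Kip proteins bind several cyclin-kinase complexes, whereas INK4 proteins bind CDK4 and CDK6 and keep them from the D-type cyclins, so that the retinoblastoma protein stays active. PRC2, the Polycomb complex that methylates histone H3 at lysine 27, has AEBP2 as one of its cofactors, and the locus that holds Cdkn2a and Cdkn2b is a long-known Polycomb target. The lists hold 2877 and 6779 peaks for AEBP2 replicates 1 and 2, 2884 for FS2-AEBP2, and 14112 and 9275 for H3K27me3 replicates 1 and 2. They hold no read counts, so the depth is unknown, and a place without a peak was not called, which is not the same as unbound or unmarked. H3K27me3 peaks were the longer ones, with a median length of 2073 and 2244 bp, against 1193, 855 and 893 bp in AEBP2 replicates 1 and 2 and FS2-AEBP2. Positions are those of the mm9 mouse genome.

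Of the 7 inhibitor genes, 5 had an H3K27me3 peak within 1 kb of a start site in both replicates, namely Cdkn1a, Cdkn1c, Cdkn2a, Cdkn2b and Cdkn2c. AEBP2 peaks were found in both replicates at 3 of them, Cdkn1c, Cdkn2a and Cdkn2c, and FS2-AEBP2 peaks at 2, Cdkn1c and Cdkn2a. Cdkn1b and Cdkn2d had a peak in none of the lists. Among all protein-coding genes, 16.2% had H3K27me3 in both replicates, 9.24% had AEBP2 in both, 7.15% had FS2-AEBP2, 5.02% had all 5 lists and 66.2% had none. With 7 genes chosen by name no test was made of these shares. Cdkn2a and Cdkn2b lie side by side, so their calls are not separate. The same H3K27me3 peak of replicate 2, 15271 bp long, reached a start site window of both.

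The AEBP2 count turned on the replicate. AEBP2 replicate 1 had a start site peak at 3 inhibitor genes, where the background was 9.90%, and replicate 2 had one at 5, where the background was 24.0%. Cdkn1a and Cdkn2b were the genes that replicate 2 added, so that without replicate 1 the count was 5. The replicate with the longer list thus held AEBP2 at each inhibitor gene that carried H3K27me3, at Cdkn2b by a peak of 258 bp with score 1. Of the 3626 genes with H3K27me3 in both replicates, 1123 had the pattern of Cdkn1c over the lists, 329 that of Cdkn2c and 832 that of Cdkn1a. Each of these patterns includes AEBP2 replicate 2, so such an overlap was not particular to the inhibitors. H3K27me3 was at the same 5 inhibitor genes in replicate 1 (background 18.5%) and in replicate 2 (background 19.3%).

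**Figure D1:**
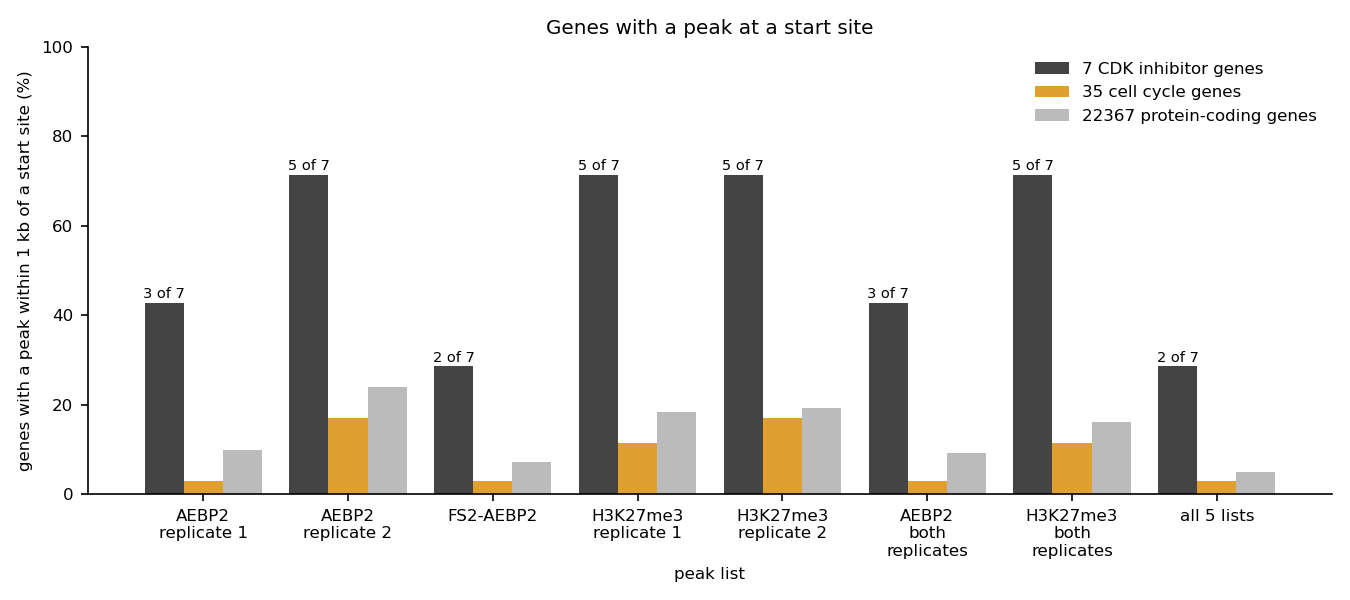
Share of genes, in percent, with a peak within 1 kb of a start site in each list, in both replicates of a target and in all 5 lists. Bars stand for the 7 inhibitor genes, the 35 other cell cycle genes and all 22367 protein-coding genes, and the inhibitor genes had 5 of 7 in both H3K27me3 replicates where all genes had 16.2%.

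The plot of shares sets the inhibitors beside 35 other genes of the cell cycle (9 cyclins, 5 kinases, 3 Cdc25 phosphatases, 3 pocket proteins, 10 E2F and DP factors, 3 genes of the p53 axis and 2 of inhibitor turnover). H3K27me3 lay at 4 of these 35 in both replicates (11.4%, against 16.2% of all genes) and AEBP2 at 1 (2.86%, against 9.24%). Without AEBP2 replicate 1 the AEBP2 count was 6 (17.1%, against 24.0%). No list had a peak at 25 of them (71.4%, against 66.2%). The gene with all 5 lists was Ccnd2, which encodes the D-type cyclin D2, and its best covered start site window lay wholly inside peaks of each list. The other genes with H3K27me3 in both replicates, named after their values were seen, were Ccna1, Rb1 and E2f8. Their best windows were covered to 100% and 89.1% (Ccna1, a cyclin of the germline), 9.85% and 7.7% (Rb1, the retinoblastoma protein that INK4 proteins keep active) and 31.3% and 17.3% (E2f8, a repressor of the E2F family) in replicates 1 and 2. None of the 5 kinases had a peak in any list, nor had 6 of the 9 cyclin genes, among them Ccna2, Ccnb1, Ccnd1, Ccnd3 and Ccne1. Their pattern was that of Cdkn1b and Cdkn2d.

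Read across the 5 lists, the inhibitor genes fell into 4 patterns of presence and absence. Cdkn1c and Cdkn2a had every list, a pattern of 1123 genes. Cdkn2c had all but FS2-AEBP2, as did 329 genes in all (1.47%). Cdkn1a and Cdkn2b had AEBP2 replicate 2 and both H3K27me3 replicates, as 832 genes did (3.72%), and Cdkn1b and Cdkn2d shared the empty pattern with 14800 genes in all. The Cip/Kip and INK4 families each therefore held a gene with all lists and a gene with none.

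**Figure D2:**
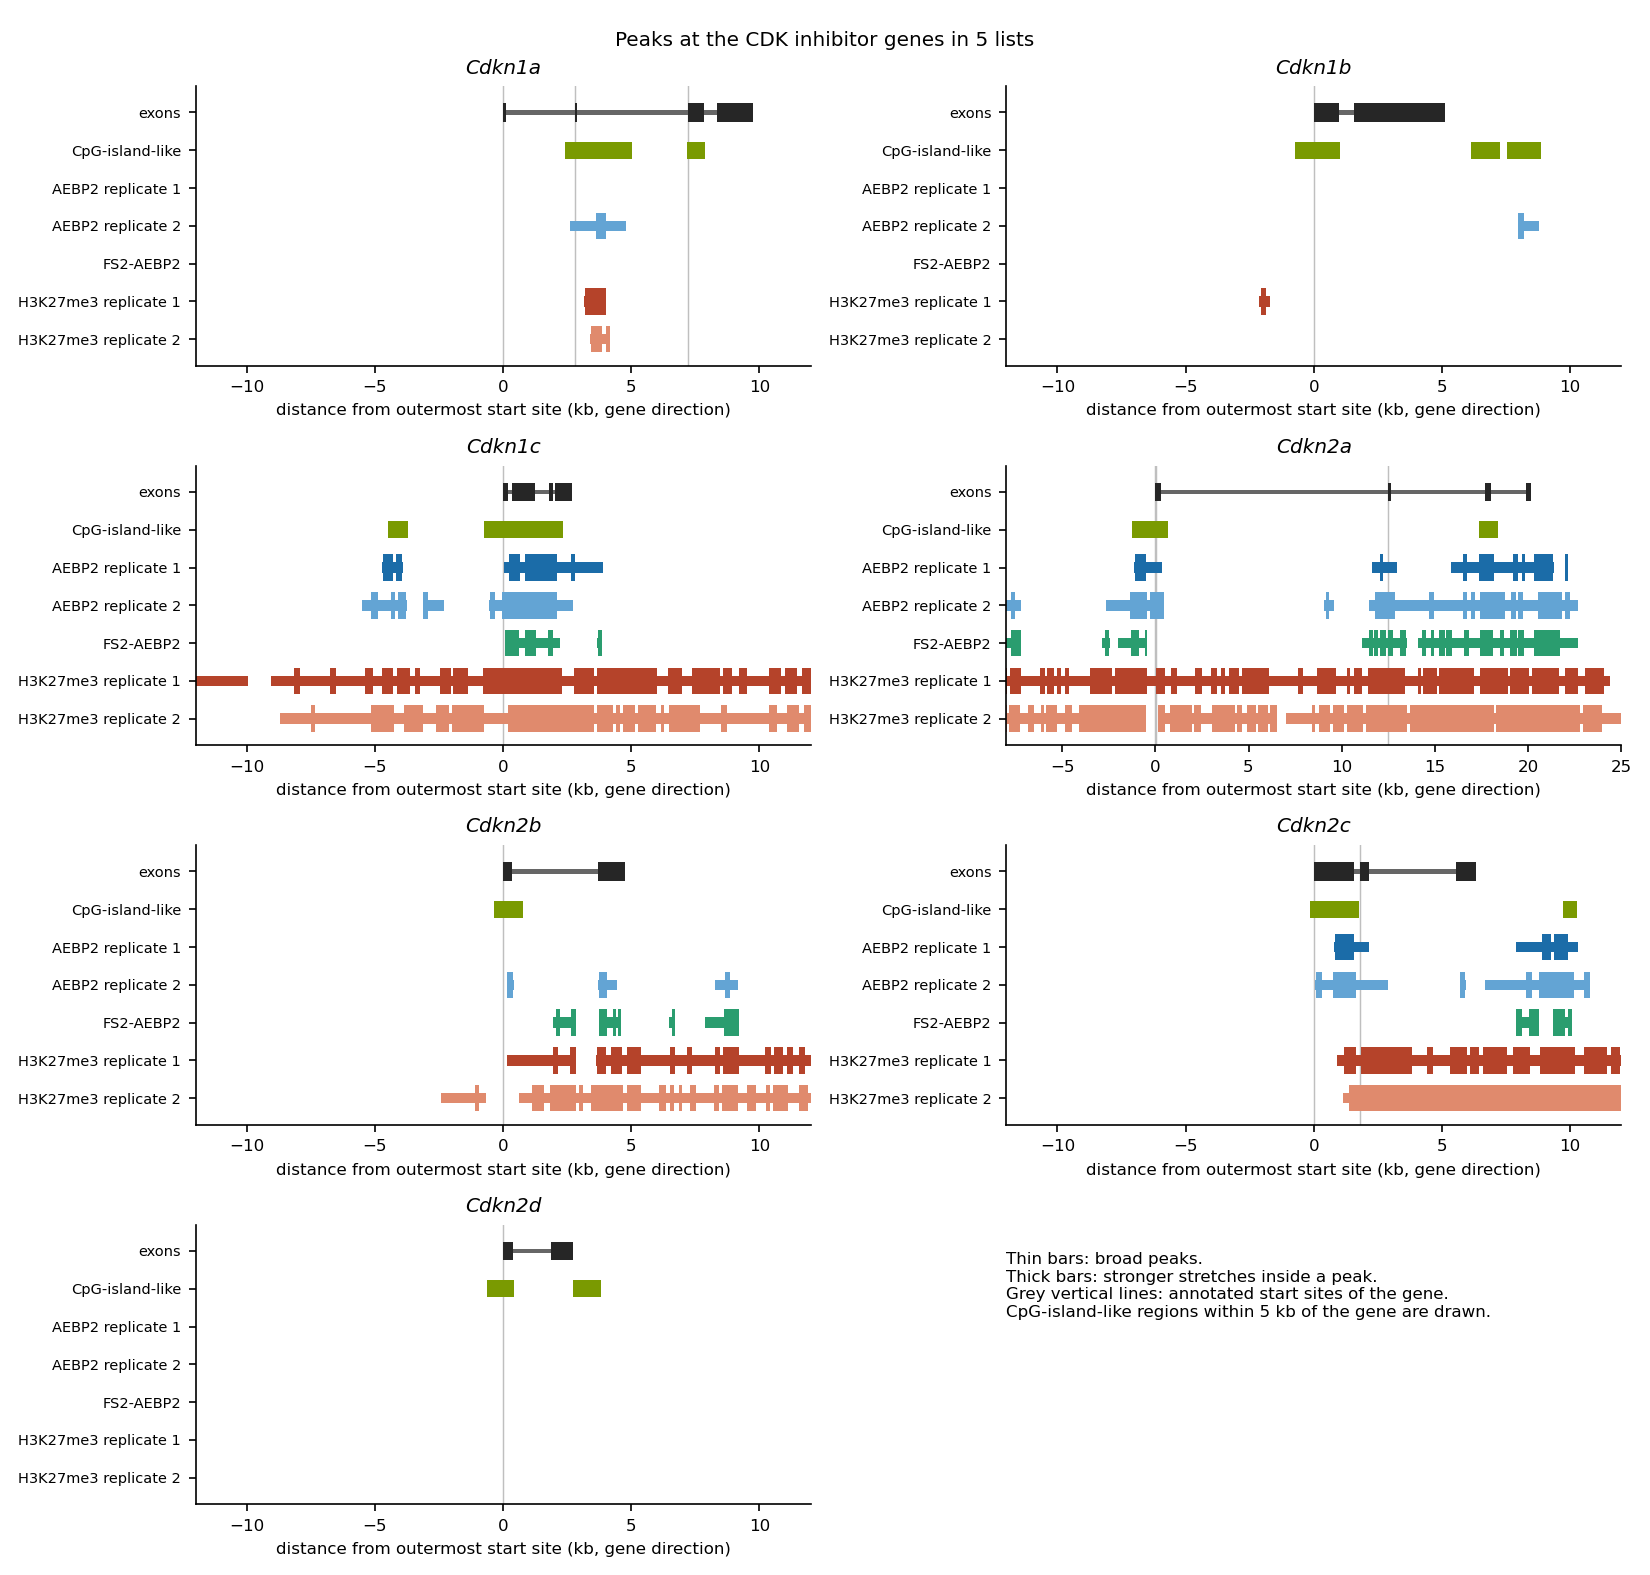
Peaks (thin bars) and the narrower stretches inside them (thick bars) around each inhibitor gene, by distance in kb from its outermost start site in the direction of the gene, with 1 row for each of the 5 lists and rows for CpG-island-like regions and exons. H3K27me3 bars span Cdkn1c and Cdkn2a, most of Cdkn2b and Cdkn2c and a short piece of Cdkn1a, and the Cdkn1b and Cdkn2d genes hold no bar.

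Along the gene bodies the same genes had peaks, as the map of peaks shows. The start site windows overlap the bodies and many peaks count in both, so these counts are not separate from those at the starts. H3K27me3 peaks in both replicates overlapped the bodies of 5 inhibitor genes (background 17.3%) and AEBP2 peaks in both replicates those of 3 (background 9.53%). FS2-AEBP2 overlapped 3 (background 7.69%), because Cdkn2b, which had no tagged AEBP2 within 1 kb of its start, had it further into the gene. Single lists gave 3 genes for AEBP2 replicate 1 (background 10.3%), 5 for AEBP2 replicate 2 (24.9%), and 5 for each of H3K27me3 replicates 1 and 2 (20.8% and 20.2%). The bodies of Cdkn1c and Cdkn2a had all 5 lists, as 5.39% of genes did, and those of Cdkn1b and Cdkn2d had none, as 64.0% did.

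Sequence around the starts was read from the mm9 genome to set it beside the peaks. All 7 inhibitor genes had a CpG-island-like region (windows of 500 bp in which GC was at least 55% and CpG reached 0.65 of the number its base composition predicts) within 1 kb of a start, as 57.8% of protein-coding genes did. Among the 12920 genes with such a region, H3K27me3 in both replicates was found at 24.7%, AEBP2 in both at 15.7% and no list at 49.1%. In the same genes AEBP2 replicate 2 was found at 40.2%, FS2-AEBP2 at 12.1% and all 5 lists at 8.55%, each above its share of all genes. A CpG-rich start was thus shared by inhibitor genes with every list and inhibitor genes with none. The 300 bases before 4 starts are given 5′ to 3′ on the strand of the gene, with each CpG in capitals, since they differ widely in both base composition and peak cover.
Cdkn2a Arf start (transcript Cdkn2a-002), chr4:88940558-88940857, minus strand: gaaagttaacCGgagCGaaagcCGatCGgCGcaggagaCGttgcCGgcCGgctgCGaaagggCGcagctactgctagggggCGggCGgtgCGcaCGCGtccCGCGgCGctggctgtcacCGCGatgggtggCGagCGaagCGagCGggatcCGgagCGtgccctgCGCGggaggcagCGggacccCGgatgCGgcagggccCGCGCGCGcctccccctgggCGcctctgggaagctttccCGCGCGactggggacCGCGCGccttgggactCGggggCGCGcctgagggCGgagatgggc
Cdkn2a p16 start (transcript Cdkn2a-001), chr4:88928097-88928396, minus strand: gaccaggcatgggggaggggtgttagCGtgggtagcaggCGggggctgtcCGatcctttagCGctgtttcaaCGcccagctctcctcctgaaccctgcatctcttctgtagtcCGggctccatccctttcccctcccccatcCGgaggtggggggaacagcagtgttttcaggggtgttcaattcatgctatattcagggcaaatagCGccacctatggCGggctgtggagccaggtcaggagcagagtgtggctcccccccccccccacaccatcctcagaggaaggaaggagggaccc
Cdkn2c inner start (transcript Cdkn2c-002), chr4:109337978-109338277, minus strand: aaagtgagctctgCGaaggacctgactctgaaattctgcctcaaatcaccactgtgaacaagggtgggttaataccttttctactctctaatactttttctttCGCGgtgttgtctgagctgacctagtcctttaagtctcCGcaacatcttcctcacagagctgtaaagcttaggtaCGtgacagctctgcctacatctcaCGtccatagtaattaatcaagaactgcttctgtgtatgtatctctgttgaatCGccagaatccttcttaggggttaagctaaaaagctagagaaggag
Cdkn1b, chr6:134870119-134870418, plus strand: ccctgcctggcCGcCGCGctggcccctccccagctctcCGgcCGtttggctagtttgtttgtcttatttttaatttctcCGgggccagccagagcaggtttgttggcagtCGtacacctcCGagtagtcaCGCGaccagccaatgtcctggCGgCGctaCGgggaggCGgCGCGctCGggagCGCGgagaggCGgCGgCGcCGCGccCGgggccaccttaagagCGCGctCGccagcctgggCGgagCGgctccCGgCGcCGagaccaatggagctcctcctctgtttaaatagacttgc

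The Arf stretch was the richest of them, with 46 CpGs and 75.3% GC. Cdkn1b, which no list marked at its start, had 33 CpGs and 67% GC, more CpGs than 92.7% of 22361 protein-coding promoters. The p16 and inner Cdkn2c stretches held fewer CpGs than either of these. The p16 stretch held 9 CpGs, the number that was also the median of all promoters, and lay wholly inside peaks of all 5 lists. The inner Cdkn2c stretch held 7 CpGs at 43.7% GC and lay wholly inside AEBP2 and H3K27me3 peaks of both replicates. Among these printed starts the order by CpG number was not the order by peaks. They were picked because they differ in both, so this says nothing about starts in general.

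Of the other starts, Cdkn2d had 20 CpGs and no peak, Cdkn1a had 19 before the start of Cdkn1a-001, and Cdkn2b had 12. The word GGGCGG, the core of the GC box that SP1 binds, was searched on both strands and was found 3 times before the Arf start of Cdkn2a-002, 3 times before Cdkn2d, 2 times before Cdkn1a-001 and once before Cdkn1b. It was absent from the p16, Cdkn2b and Cdkn2c stretches, and 40.9% of all promoters held it. The E-box CACGTG was in none of the stretches described here and in 7.39% of promoters. A match of letters is a description and not a binding site.

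**Figure D3:**
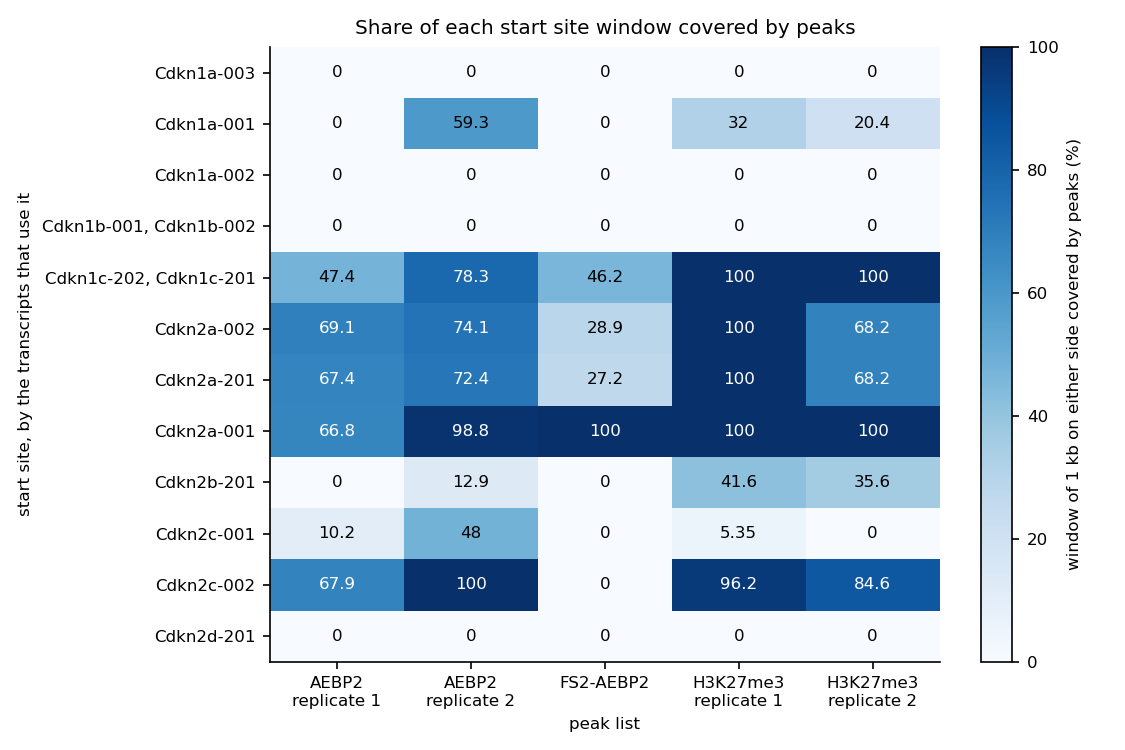
Percent of the window of 1 kb on either side of each annotated start site that lay inside peaks, with 1 row for each start site of the inhibitor genes and 1 column for each of the 5 lists. The p16 start Cdkn2a-001 was covered to 66.8% or more in every list, and all values of Cdkn1b and Cdkn2d were 0.

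How far a peak reached over a start differed more than its presence did, as the grid of window cover shows. Among all genes with a start site peak, the median cover of the best covered window was 100% in each H3K27me3 list and 49.9%, 41.9% and 49.4% in AEBP2 replicates 1 and 2 and FS2-AEBP2. Cdkn1c and the p16 start of Cdkn2a reached 100% in both H3K27me3 replicates. Cdkn1a and Cdkn2b stayed at 41.6% or less in both. A call at Cdkn1a or Cdkn2b thus stood for a partly covered window, and neither had its start inside an H3K27me3 peak.

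Cdkn1c encodes p57, a Cip/Kip inhibitor that restrains growth of the embryo and is imprinted, with the maternal copy expressed. The gene lies on chromosome 7 at 150644255 to 150646955 on the minus strand (2701 bp). AEBP2 replicate 1 had a peak of 3828 bp with score 13 that ended 53 bp short of the start, and replicate 2 had one of 3307 bp with score 30, above 93.5% of its list, that contained the start. The FS2-AEBP2 peak was 2158 bp long with score 13 and ended 76 bp short of the start. The 3 peaks thus lay on the same gene, and its 1044 coding bases were inside each of them and inside both H3K27me3 peaks. In all, 98%, 100% and 79.9% of the gene lay in AEBP2 replicates 1 and 2 and FS2-AEBP2. Cdkn1c was thus wholly covered in replicate 2 alone of these lists. Wholly covered genes made up 0.456%, 0.751% and 0.478% of protein-coding genes in the same order. Gene length was not taken into account in these shares.

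The CpG-island-like region of 3070 bp at Cdkn1c, with 290 CpGs, ran from 745 bp before the start to 2324 bp inside the gene and was covered to 74%, 94.2% and 70.3% by AEBP2 replicates 1 and 2 and FS2-AEBP2. An 800 bp region that ended 3696 bp before the start was covered to 74.1% and 91.5% by AEBP2 replicates 1 and 2, and no part of it was in an FS2-AEBP2 peak.

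Cdkn1c lay inside the longest of the 14112 H3K27me3 peaks of replicate 1. That peak was 162098 bp long (chr7:150493912-150656009), and 119044 bp of it, or 73.4%, lay in Kcnq1, the potassium channel gene next to Cdkn1c. It reached 9054 bp before the start of Cdkn1c and 153043 bp past it, in the direction of the gene. In replicate 2 the peak at Cdkn1c was 48935 bp long and ranked 8th by length of 9275. The region was not empty between these extents, since 19 peaks of replicate 2, from 158 to 48935 bp, covered 88.4% of the replicate 1 domain. Within the bounds of the replicate 1 peak, the lengths of single peaks thus differed more between the replicates than the bases inside peaks. Replicate 1 fills these bounds by definition, so this is not a measure of how far the replicates agree. The inner stretches of the replicates were not compared over this domain.

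AEBP2 took up little of the H3K27me3 replicate 1 domain. Replicate 1 had 3 peaks over 3.91% of the 162098 bp, replicate 2 had 6 over 9.89%, and FS2-AEBP2 had 4 over 2.96%. Over the shorter H3K27me3 replicate 2 peak, 48935 bp long, the shares were higher, at 13%, 27.7% and 9.79% in the same order. Within 10 kb of Cdkn1c every AEBP2 and FS2-AEBP2 base lay in H3K27me3 of both replicates, and these AEBP2 bases made up 21.8%, 27.4% and 11% of the shared H3K27me3 bases. H3K27me3 here was a broad field with narrow AEBP2 peaks inside it. The lists do not separate the parental copies, so which copy carried the mark was not tested.

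The imprinted genes around Cdkn1c differed among themselves at their starts, as the map of the domains shows in part. Kcnq1 and Ascl2, a transcription factor of the placenta, had a peak of all 5 lists within 1 kb of a start. Phlda2, a growth-restraining gene of the placenta, had all but AEBP2 replicate 1, Osbpl5 had both H3K27me3 replicates, Slc22a18 had H3K27me3 replicate 1 and Nap1l4 had AEBP2 replicate 2. Cd81 and Tssc4 had none. Kcnq1ot1, the antisense RNA of this domain, was not analysed here.

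Cdkn2a holds 2 proteins in 1 gene. The transcript Cdkn2a-001 encodes p16, an INK4 inhibitor of CDK4 and CDK6, while Cdkn2a-002 and Cdkn2a-201 begin upstream with another first exon and encode Arf, which binds MDM2 and so stabilises p53. The gene lies on chromosome 4 at 88920377 to 88940557 on the minus strand (20181 bp), with the p16 start at 88928096 and the Arf starts at 88940557 and 88940523. Cdkn2b lies 11641 bp upstream. All 3 starts had a peak of every list within 1 kb.

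The p16 start stood inside a peak in all 5 lists. Its window was covered to 66.8% and 98.8% by AEBP2 replicates 1 and 2, to 100% by FS2-AEBP2 and to 100% by each H3K27me3 replicate. The AEBP2 replicate 1 peak there was weak, with score 3 and 7.47% of its list scored lower. The replicate 2 peak was a block of 11214 bp with score 29, above 93.1% of its list. That block ran to 10238 bp past the p16 start, over exons 2 and 3, so its score is not that of the start alone. No CpG-island-like region lay in this window, and the printed p16 stretch held 9 CpGs. Of 35070 single start sites without such a region, 0.314% had all 5 lists, against 6.35% of 34981 start sites with one. The p16 start was 1 of 110 such sites.

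At the Arf starts the pattern was broken up. The start of Cdkn2a-002 was inside an AEBP2 peak of 1529 bp in replicate 1 and of 3147 bp in replicate 2, with scores 10 and 8. FS2-AEBP2 had its nearest peak 423 bp upstream, 1596 bp long with score 6, and no peak of that list touched the Arf first exon. H3K27me3 replicate 2 left a gap of 636 bp between 2 peaks (chr4:88940403-88941038) that held both Arf starts. The H3K27me3 replicate 1 peak ran over it, but between its inner stretches, the narrower parts called within a broad peak, there was a gap of 470 bp that held the same starts. The whole of the replicate 2 gap lay inside AEBP2 peaks of both replicates. The inner stretches of AEBP2 replicate 1 also left a gap, of 12509 bp, that held both Arf starts. In replicate 1 the Arf starts were thus inside the peaks and outside the inner stretches of AEBP2 and H3K27me3 alike. In replicate 2 they were inside a peak and a stretch of AEBP2 and outside those of H3K27me3. The CpG-rich Arf stretch printed for Cdkn2a-002 was wholly in both AEBP2 lists and in H3K27me3 replicate 1, and outside FS2-AEBP2 and H3K27me3 replicate 2.

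Exons 2 and 3, which the p16 and Arf transcripts share, with exon 2 read in different frames, were wholly inside peaks of all 5 lists, as was the first exon of p16. The first exon of Arf in Cdkn2a-002 was covered to 100%, 100%, 0%, 100% and 51.6% by AEBP2 replicates 1 and 2, FS2-AEBP2 and H3K27me3 replicates 1 and 2. The strongest FS2-AEBP2 peak among the inhibitor genes lay over the shared exons, 8604 bp long with score 86, at rank 29 of 2884 in its list. It covered a CpG-island-like region of 1010 bp around exon 2, which the other 4 lists also covered wholly. The shared exons and the p16 first exon were thus in every list, and the Arf first exon was not.

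The locus from Cdkn2a to Cdkn2b (36565 bp) was H3K27me3 nearly from end to end, at 97.4% in replicate 1 and 95.2% in replicate 2. Replicate 1 covered it mainly with 1 peak of 37169 bp, the 23rd longest in its list, while replicate 2 used 3 peaks of 19227, 6381 and 15271 bp. AEBP2 replicates 1 and 2 and FS2-AEBP2 covered 19.7%, 39.1% and 37.5% of it. Between the genes the values were 9.85%, 30.7% and 30%, where H3K27me3 covered 100% and 95.9%. AEBP2 peaks thus lay within the H3K27me3 field as at Cdkn1c: within 10 kb of Cdkn2a, 92.6%, 96% and 99.6% of the bases of AEBP2 replicates 1 and 2 and FS2-AEBP2 were in H3K27me3 of both replicates.

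Cdkn2b encodes p15, the INK4 inhibitor that TGF-beta induces, and lies on chromosome 4 at 88952198 to 88956941 on the minus strand (4744 bp). Its body was marked more than its start. The start lay outside every peak: H3K27me3 replicate 1 ended 169 bp inside the gene, and replicate 2 ended 632 bp inside and began again 657 bp upstream, a gap of 1288 bp. The start site call in AEBP2 replicate 2 was a peak of 258 bp, 152 bp inside the gene, with score 1. This was the lowest score value of its list, shared with other peaks. In the body, H3K27me3 covered 80.1% and 86.7%, and AEBP2 replicates 1 and 2 and FS2-AEBP2 covered 0%, 20.7% and 37.2%. Exon 2 held most of the AEBP2 cover, with 70.5% of it in replicate 2 and 87% in FS2-AEBP2, which had a peak of 893 bp with score 12 there. The AEBP2 call at the start of Cdkn2b was thus the lowest scored of the replicate 2 calls at the inhibitor genes, and replicate 1 had no peak in the gene.

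Cdkn2c encodes p18, an INK4 inhibitor of CDK4 and CDK6, and lies on chromosome 4 at 109333481 to 109339794 on the minus strand (6314 bp). It had no FS2-AEBP2 peak in the gene. Its inner start, at 109337977 (Cdkn2c-002), had a window covered to 67.9% and 100% by AEBP2 replicates 1 and 2 and to 96.2% and 84.6% by H3K27me3 replicates 1 and 2. Its outer start, at 109339794 (Cdkn2c-001), had 10.2%, 48%, 5.35% and 0% in the same order. The peaks thus covered more of the inner start window than of the outer one. The 300 bases before the inner start, printed for Cdkn2c, held 7 CpGs, and those before the outer start held 5. A CpG-island-like region of 1930 bp (chr4:109338021-109339950) began 156 bp before the outer start and contained it. It also reached into the window of the inner start and over most of the printed inner stretch. This region lay in AEBP2 replicates 1 and 2 to 50.7% and 89.8% and in H3K27me3 to 45.6% and 33.6%.

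H3K27me3 at Cdkn2c was a block of 12954 bp with score 25 in replicate 1 and of 14523 bp with score 23 in replicate 2, above 95.5% and 93.3% of their lists. It covered 85.8% and 82.2% of the gene and ran on past its 3′ end. There, 7927 to 8436 bp from the inner start, a further CpG-island-like region of 510 bp was wholly inside AEBP2 and H3K27me3 of both replicates and to 67.6% inside FS2-AEBP2, whose peak there had score 30, above 86.9% of its list. The tagged protein was thus called beside Cdkn2c but not in it. Faf1, which lies 9399 bp upstream, had no start site peak in any list.

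Cdkn1a encodes p21, the inhibitor that p53 induces after DNA damage, and lies on chromosome 17 at 29227924 to 29237667 on the plus strand (9744 bp). Of its 3 starts, only that of Cdkn1a-001 at 29230717 had a peak within 1 kb. AEBP2 replicate 2 had a peak of 2169 bp with score 9 that contained this start, and AEBP2 replicate 1 had none nearer than 143164 bp. H3K27me3 was a short patch inside the first intron, 875 bp with score 9 from 361 bp past the start in replicate 1 and 798 bp with score 13 from 593 bp past it in replicate 2. Only 23.8% and 19.9% of the peaks in these lists were shorter. The 643 bp that both H3K27me3 replicates shared lay wholly in the AEBP2 replicate 2 peak and made up 29.6% of it. The Cdkn1a patch was thus small beside the fields at Cdkn1c, Cdkn2a and Cdkn2c, and no exon base was in it.

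Cdkn1b encodes p27, an inhibitor of the kinase that cyclin E and cyclin A bind, and lies on chromosome 6 at 134870419 to 134875531 on the plus strand (5113 bp). No peak lay in the gene or within 1 kb of its start. The nearest was an H3K27me3 peak of replicate 1, 425 bp long, 1698 bp upstream, and H3K27me3 replicate 2 had none nearer than 62740 bp. AEBP2 replicate 2 had a peak of 837 bp with score 11 at 7959 bp past the start, outside the gene, and AEBP2 replicate 1 and FS2-AEBP2 were 21805 bp and 1251781 bp away. Cdkn1b was thus free of peaks at the CpG-rich start whose sequence is printed, and whose CpG-island-like region was 1740 bp long with 129 CpGs.

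Cdkn2d encodes p19, the remaining INK4 inhibitor, and lies on chromosome 9 at 21092907 to 21095653 on the minus strand (2747 bp). The nearest peak of AEBP2 replicates 1 and 2, FS2-AEBP2 and H3K27me3 replicates 1 and 2 lay 46270, 22659, 45530, 41120 and 41162 bp from its start. Its CpG-island-like region at the start was 1040 bp long with 70 CpGs. Its neighbours Kri1, 492 bp away, and Ap1m2 had no start site peak in any list, so the gene lay in a stretch without called peaks.

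**Figure D4:**
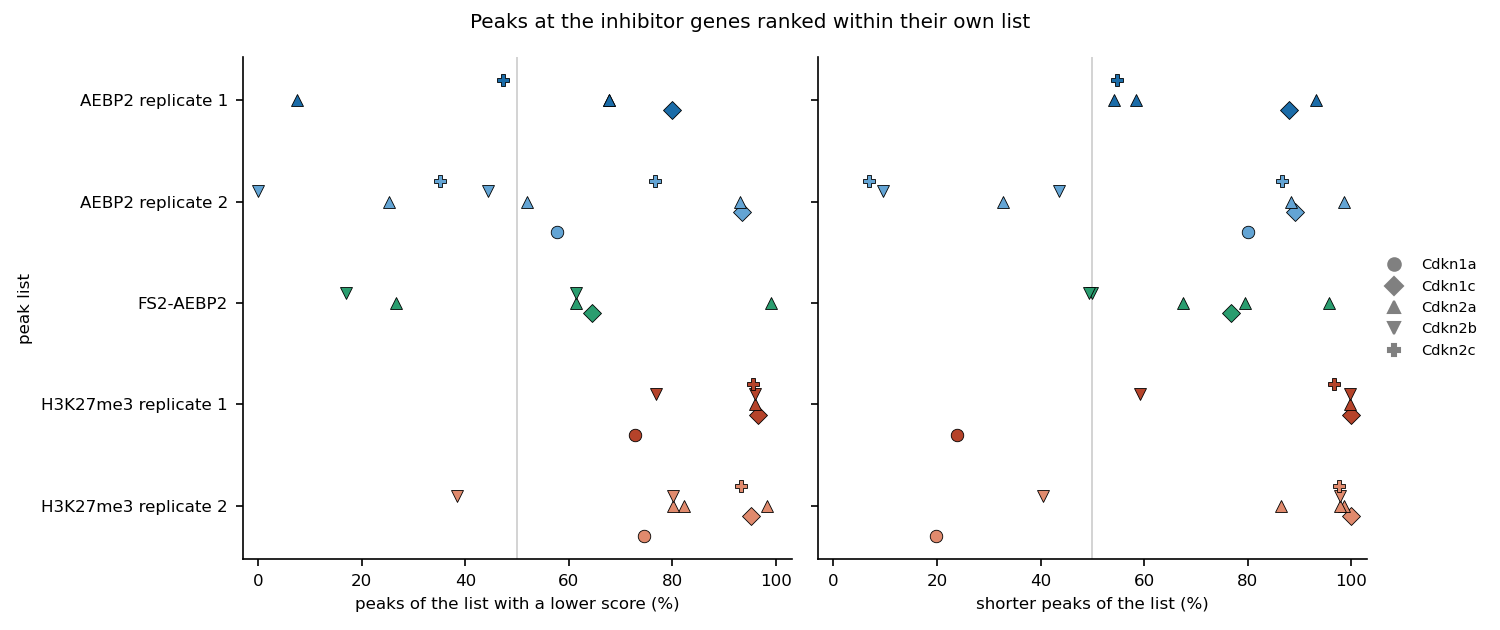
Length and score of the peaks at the inhibitor genes, each as the percent of peaks of its own list that were shorter or scored lower, with 1 marker for each peak that overlapped a start site window or gene body and 1 row for each list. H3K27me3 peaks of Cdkn1c, Cdkn2a and Cdkn2c sit at the long end and those of Cdkn1a at 23.8% and 19.9% of their lists. The AEBP2 replicate 2 peak at the start of Cdkn2b had the lowest score value of its list, shared with other peaks.

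The peaks were also ranked within their own lists. H3K27me3 at Cdkn1c, Cdkn2a and Cdkn2c was longer than 86.5% or more of the peaks of its list, and at Cdkn1c it ranked 1st and 8th by length. At Cdkn2c the H3K27me3 peaks were longer than 96.6% and 97.6% of their lists. At Cdkn1a they were short in length but not low in score, above 72.8% and 74.6% of their lists. The plot of ranks compares peaks only within a list, as the scale of the scores is not given in the sources used here.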

How the data were processed

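ChIP-seq was measured in wild-type mESCs. Per the submitters' processing notes and the paper, Bowtie, SAMtools, Picard and MACS2 2.0.10.2 were used, on mm9. The order, settings and thresholds are not given in the sources used here. The authors deposited 1 list of broad peaks for each of the 5 samples used here, with positions, inner stretches and a whole-number score whose scale is not stated. Peaks off chromosomes 1 to 19, X and Y were left out (2 of AEBP2 replicate 1 and 13 of H3K27me3 replicate 2). No input or count is used here. Sample records were followed for the H3K27me3 replicates, although the file names appear to number them the other way round, and the labels name the antibody as against H3K27 without its methylation state.

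Genes and start sites came from GENCODE vM1. A gene had a peak when at least 1 bp of it lay within 1 kb of any annotated start, or in the gene body. Overlaps were checked on simulated peaks. Python 3.11.15, numpy 2.4.6, pandas 2.3.3 and pysam 0.24.0 were used. All 7 members are named. Of the pathway list, genes with all 5 lists, and up to 5 genes in alphabetical order with the pattern of a member, are named, as are the nearest protein-coding genes and the imprinted genes near Cdkn1c. Members and lists were chosen with earlier results of these data known. No test was made. Alternatives were the window, the rule for overlap, the score, the start sites, joined peaks and the replicates. The sequence of 1 promoter is not reported here.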

Additional observations from a re-analysis of the deposited data

How the results depend on the processing

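Of 53 recomputed counts, 41 stayed within 1.5 times the reported one. At start sites, AEBP2 in both replicates (3 genes) became 5 with a peak of either replicate, and ranged from 3 to 5 with 1 replicate left out, the 5 being without AEBP2 replicate 1. Within the 1.5 times, it fell to 2, Cdkn2a and Cdkn2c, with the start itself inside the peak. The same 2 genes were left with at least 50% of the window covered, so that both rules lost Cdkn1c. H3K27me3 (5 genes) became 3 with a window of 500 bp, 3 with the start itself inside the peak and 3 with at least 50% of the window covered, each losing Cdkn1a and Cdkn2b, and 3 with the outermost start alone, losing Cdkn1a and Cdkn2c. FS2-AEBP2 (2 genes) became 1, Cdkn2a, with the start inside the peak and 1, Cdkn2a, with 50% of the window covered. In gene bodies, AEBP2 (3 genes) became 1, Cdkn1c, with 50% of the body covered and 5 with either replicate, and ranged from 3 to 5 with 1 replicate left out. FS2-AEBP2 (3 genes) became 1, Cdkn1c, with 50% of the body covered. The cell cycle gene with all 5 lists was Ccnd2 under each alternative run.

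The peak lists give no depth, and the part of depth and of the calling threshold in an absent peak was not tested. FS2-AEBP2 has 1 list and no replicate. No paired analysis was possible because the counts come from no test.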

Other observations

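Among the genes that flank the inhibitors, Gpr19, an orphan receptor gene 22476 bp from Cdkn1b, had AEBP2 in both replicates at a start and no H3K27me3, while Cdkn1b had neither. Dmrta1, a transcription factor gene 389186 bp upstream of Cdkn2b, had AEBP2 and H3K27me3 in both replicates and no FS2-AEBP2, the pattern of Cdkn2c. Mtap, on the other side of Cdkn2a, had no peak of any list at a start, and neither had Srsf3 and Rab44 around Cdkn1a nor Apold1 beside Cdkn1b.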
